A study of Mus musculus with 10 samples.

Results

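The genes described here belong to the unfolded protein response and the integrated stress response, and were chosen by gene symbol from the probes of a mouse whole-genome oligonucleotide array. The list holds 37 genes of the 19942 distinct symbols on the array. Of these, 36 have at least 1 spot with their symbol, and 33 are among the 16113 genes that were tested. The samples are left ventricles of male C57BL/6J mice operated at 8 weeks of age, either by transverse aortic banding (TAB), which narrows the aorta and loads the left ventricle with pressure, or by sham operation. There is 1 TAB and 1 sham sample for each of 5 days after the operation (3, 5, 7, 14 and 28), which makes 10 samples. The number of mice in a sample is not stated, and a difference on a single day has no replicate check. The TAB sample of day 14 carries a label of 15 days besides its title, and was used as day 14.

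Proteins that enter the secretory pathway fold in the endoplasmic reticulum (ER) with the help of chaperones and of enzymes that form disulfide bonds. When unfolded proteins accumulate there, 3 sensors of the ER membrane respond. IRE1 (encoded by Ern1) splices the mRNA of the transcription factor XBP1, ATF6 is cleaved to release a transcription factor, and PERK (encoded by Eif2ak3) phosphorylates the translation factor eIF2α. Phosphorylation of eIF2α, which kinases for amino acid shortage, viral RNA and haem shortage also carry out, lowers protein synthesis in general while raising translation of ATF4, and this common step is the integrated stress response. XBP1 and ATF6 induce chaperones and degradation factors, whereas ATF4 induces genes of amino acid synthesis and import, Ddit3 (CHOP) and feedback regulators. Much of this control acts on splicing, cleavage and translation, which an array of mRNA levels does not read.

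Both arms act through short DNA elements, and the RefSeq promoter windows of the genes (GRCm38.p6, from 250 bases before to 50 bases after a start site) were searched for their letters on both strands. Windows were matched for 33 of the 37 genes, with 34 windows in all. ERSE, the element read by ATF6 and XBP1 together with NF-Y, was searched as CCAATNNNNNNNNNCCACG, ERSE-II as ATTGGNCCACG, the XBP1 element UPRE as TGACGTGG and the ATF4 element CARE as TGATGNAA. The ERSE letters were found in 10 of the 34 windows (29.4%), against 0.119% of all 32851 windows. ERSE-II was found in 2 windows (5.88%, against 0.0365% of all), CARE in 4 (11.8%, against 3.97%), and UPRE in 0 (against 0.676%). A match describes the letters alone, and ERSE and ERSE-II share the letters CCACG. The genes were chosen as members of the responses that act through these elements, so that these shares are background and no result of these data. The stretches below are shown because the sham levels of day 14 are set side by side for genes with and without these letters. They take in 4 ER chaperones, Pdia6 and Syvn1 with ERSE, Asns and Chac1 with CARE, and Herpud1, which holds both CARE and ERSE-II. All genes with ERSE or ERSE-II letters were listed under chaperones, disulfide formation, or translocation and degradation. Apart from Herpud1, the genes with CARE letters were listed under effectors and feedback or under serine, asparagine and one-carbon synthesis. Capitals mark the matched element with 15 flanking bases, in the direction of transcription, and an element on the other strand reads in reverse complement.
Hspa5, chr2:34772010-34772058, plus strand, ERSE: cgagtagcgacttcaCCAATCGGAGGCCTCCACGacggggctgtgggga
Hsp90b1, chr10:86705518-86705671, minus strand, ERSE on either strand: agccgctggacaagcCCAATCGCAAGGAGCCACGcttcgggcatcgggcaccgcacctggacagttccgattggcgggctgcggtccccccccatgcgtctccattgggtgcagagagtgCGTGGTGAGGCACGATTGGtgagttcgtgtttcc
Calr, chr8:84847060-84847108, minus strand, ERSE on the other strand: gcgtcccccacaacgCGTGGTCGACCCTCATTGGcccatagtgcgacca
Canx, chr11:50325785-50325833, minus strand, ERSE: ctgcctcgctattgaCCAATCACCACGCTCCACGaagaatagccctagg
Pdia6, chr12:17266476-17266524, plus strand, ERSE: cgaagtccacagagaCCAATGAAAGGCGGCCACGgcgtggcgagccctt
Syvn1, chr19:6046517-6046565, plus strand, ERSE: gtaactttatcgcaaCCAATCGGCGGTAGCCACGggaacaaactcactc
Herpud1, chr8:94386302-94386402, plus strand, CARE on the other strand and then ERSE-II: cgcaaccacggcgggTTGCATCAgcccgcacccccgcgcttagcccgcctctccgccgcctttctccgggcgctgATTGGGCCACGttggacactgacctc
Asns, chr6:7693210-7693247, minus strand, CARE: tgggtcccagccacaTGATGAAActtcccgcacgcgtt
Chac1, chr2:119351034-119351071, plus strand, CARE on the other strand: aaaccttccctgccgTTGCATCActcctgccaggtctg
Ero1lb, Derl3, Dnajc3 and Creld2 also carried the ERSE letters, Dnajb11 those of ERSE-II, and Trib3 those of CARE. No letters of these elements were found in the windows of Xbp1, Pdia4, Sdf2l1, Dnajb9, Edem1, Sec61b or Psat1.

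The level of a gene is given as log2 intensity after the arrays had been scaled to a common median and quantile normalized, and a log2 ratio is the TAB level minus the sham level of the same day. Levels of different genes come from different probes and are not compared. Of the 37 genes, Phgdh, the entry enzyme of serine synthesis, had no spot with its symbol, and Manf, Ern1 and Sesn2 had 1 spot each that was removed because its scaled intensity was below 1 in at least 1 sample. The raw intensity of the Ern1 spot lay between −3 and 4 on the 10 arrays, that of Manf between −2 and 6 and that of Sesn2 between −1 and 7, and none of these spots was found on any array. The deposited flag that marks a spot as not found has no stated meaning and was read in the common sense of the scanner software. Of the 33 measured genes, 22 were represented by a spot found on all 10 arrays, and 24 had any such spot. Pdia3, Pdia6, Dnajb11 and Atf6 were represented by spots found on none, so that any difference given for these spots is one between values of spots not found, and Hspa5, Hyou1, Ero1l, Derl1, Derl3, Ppp1r15a and Mthfd2 by spots found on some.

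Over all 5 days, 3 of the 33 genes rose with TAB and 1 fell, at an adjusted p under 0.05 in limma with day as a block. Asns, which makes asparagine, rose 2.42-fold, Psat1, a transaminase of serine synthesis, rose 2.04-fold, and Edem1, which hands misfolded glycoproteins over to degradation, rose 1.81-fold. Canx, the membrane-bound lectin chaperone calnexin, fell. The share of genes that rose was 9.09%, against 9.19% of all 16113 genes, and the share that fell was 3.03%, against 7.87%, so that neither share of this gene group stood above that of all genes in this fit. The share that rose was above that of all genes in 9 of 15 alternatives, and the share that fell in 0. With only probes found on all 10 arrays it was 29.2% of 24 genes against 17.7%, with spots not found treated as missing 25% of 28 against 16%, without the block of day 21.2% against 12.1%, with 50 added 18.2% against 13.9%, and with trend and robust on 18.2% against 13.2%. With median scaling only, 11.1% of all genes were called higher and 5.31% lower, and 12.1% and 3.03% of the 33. Whether the share of these genes differs from that of all genes was not tested. In bulk tissue more cells of a type and more RNA per cell cannot be told apart. The median of the mean log2 ratios was 0.14 for the 33 genes and −0.03 for all genes, with 21 of the 33 above 0 and 47.1% of all genes. None of the 4 genes was called when the samples of day 3, of day 5, of day 7 or of day 14 were left out. Their lowest adjusted p from limma was then 0.089, 0.0703, 0.1 and 0.052, and 29, 86, 20 and 565 of all genes were still called higher, with 1, 12, 2 and 382 lower.

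**Figure D1:**
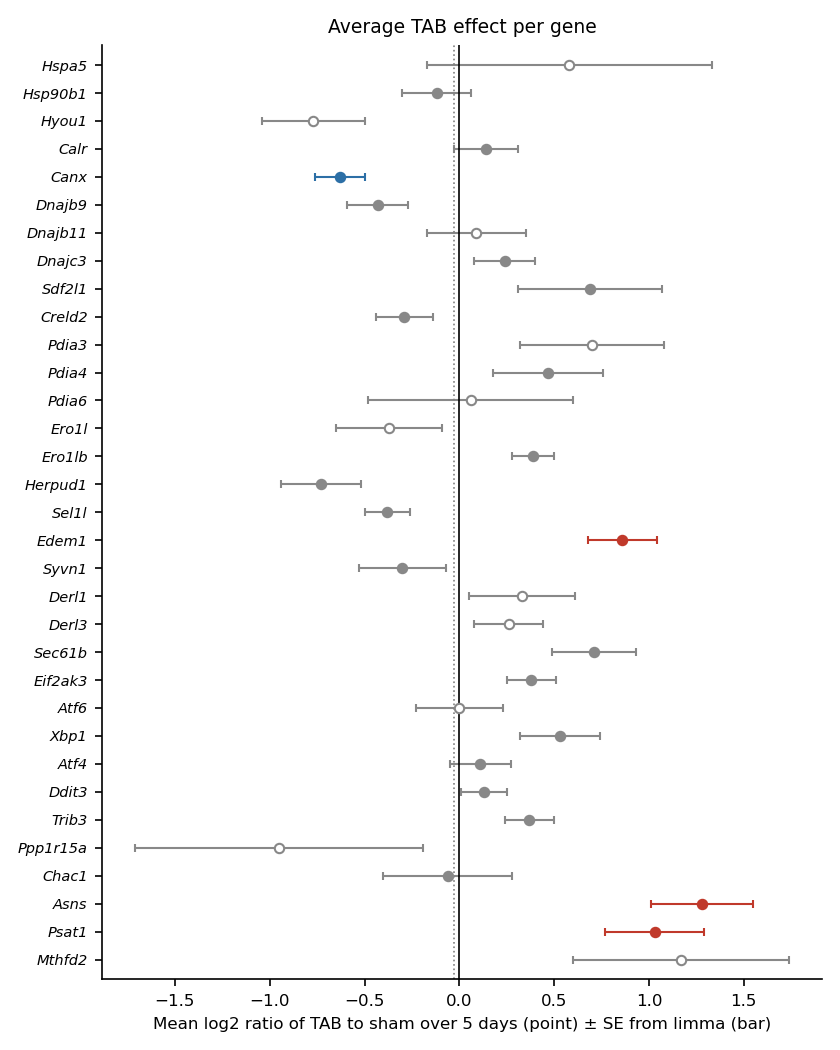
Mean log2 ratio of TAB to sham over the 5 days for each of the 33 measured genes, with bars for the SE from limma; red and blue mark an adjusted p under 0.05 (higher and lower in TAB), open symbols mark genes whose spot was not found on all 10 arrays, and the dotted line is the median of all 16113 genes (−0.03). Asns (1.28), Psat1 (1.03) and Edem1 (0.86) lie to the right, Canx (−0.63) to the left, and the wide bars of Hspa5 (SE 0.75) and Ppp1r15a (SE 0.76) belong to genes with 1 spot that was not found.

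Among the genes of serine, asparagine and one-carbon synthesis, Asns had log2 levels of 8.66, 9.25, 8.99, 8.38 and 7.87 in TAB on days 3, 5, 7, 14 and 28, and of 7.57, 6.90, 7.46, 7.48 and 7.37 in sham. Every TAB sample was above every sham sample, and the TAB level was highest on day 5 and lowest on day 28. The mean log2 ratio was 1.28 (SE 0.27, adjusted p = 0.0321 from limma). Psat1 had log2 levels of 6.82, 7.55, 7.32, 6.51 and 5.85 in TAB and of 5.45, 6.03, 5.69, 6.04 and 5.70 in sham. The TAB samples of days 3 to 14 lay above all sham samples, whereas that of day 28 lay between them, and the mean log2 ratio was 1.03 (SE 0.26, adjusted p = 0.0449 from limma). Mthfd2, a mitochondrial folate enzyme, was found on 2 TAB arrays and on 0 sham arrays. Its log2 ratio was 1.59, 1.23, −0.71, 0.26 and 3.49 on the 5 days, and the mean of 1.17 (adjusted p = 0.2 from limma) was 0.59 without day 28. No fold is given for it.

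Among the genes of translocation and ER-associated degradation, Edem1 had log2 levels of 8.18, 8.27, 8.28, 7.82 and 7.82 in TAB and of 7.15, 6.89, 7.20, 7.42 and 7.42 in sham. The samples did not overlap, and the mean log2 ratio was 0.86 (SE 0.18, adjusted p = 0.0321 from limma). Sec61b, a subunit of the channel through which nascent proteins enter the ER, had log2 levels of 9.51, 9.47, 9.39, 8.76 and 8.75 in TAB and of 8.57, 8.07, 8.56, 8.84 and 8.29 in sham. It missed the threshold with all days (mean log2 ratio 0.71, SE 0.22, adjusted p = 0.0727 from limma), and the sham sample of day 14 was the only sham sample above any TAB sample.
Herpud1, a membrane protein of the degradation complex, ran the other way, with log2 levels of 11.61, 12.16, 12.23, 12.49 and 12.83 in TAB and of 12.29, 13.78, 12.76, 12.76 and 13.35 in sham. Its ratio was below 0 on all 5 days (mean log2 ratio −0.73, SE 0.21, adjusted p = 0.0611 from limma), with the sham sample of day 5 highest. Sel1l, the scaffold of the ubiquitin ligase complex, was also lower on all 5 days (mean log2 ratio −0.38, SE 0.12, adjusted p = 0.0802 from limma). The ligase gene Syvn1 had ratios between −0.46 and 0.12 on 4 days and of −1.27 on day 14, where its sham level of 8.29 stood above the other sham levels of 7.09 to 7.43. The channel candidates Derl1 and Derl3 were each found on 8 arrays and had mean log2 ratios of 0.33 (SE 0.28) and 0.26 (SE 0.18). The mean of Derl1 was 0.06 without day 3, and that of Derl3 was 0.11 without day 28. The mean log2 ratios of this group therefore did not share 1 sign, and only that of Edem1 passed the threshold. The median log2 ratio of the group on a day lay between −0.12 and 0.2.

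Among the ER chaperones and co-chaperones, Canx had log2 levels of 10.23, 10.16, 10.36, 10.59 and 10.89 in TAB and of 10.85, 10.91, 11.10, 11.44 and 11.10 in sham. TAB was lower on every day, most on day 14 and least on day 28, and the mean log2 ratio was −0.63 (SE 0.13, adjusted p = 0.0294 from limma). A second, dimmer Canx spot, found on all arrays as well, had a mean log2 ratio of 0.18 (SE 0.10), so that the fall rests on 1 of 2 spots, and the call was lost when the spots were averaged. The soluble partner of calnexin, Calr, had log2 levels of 10.90, 10.84, 10.99, 10.45 and 10.47 in TAB and of 10.65, 10.22, 10.61, 10.87 and 10.58 in sham. Its ratio was above 0 on days 3, 5 and 7 and below 0 on days 14 and 28 (mean log2 ratio 0.14, SE 0.17, adjusted p = 0.596 from limma).
Hspa5 (BiP), the ER Hsp70 that holds the 3 sensors inactive, had log2 levels of 11.28, 10.84, 11.40, 10.67 and 10.83 in TAB and of 10.64, 10.80, 7.40, 12.15 and 11.15 in sham. The sham spot of day 7 was marked as not found and had a raw intensity of 147, against 1596 to 4422 on the other sham arrays. With it, the mean log2 ratio was 0.58 (SE 0.75, adjusted p = 0.623 from limma), and without day 7 it was −0.28 (adjusted p = 0.655 from limma).
Hsp90b1 (GRP94), the ER Hsp90, had ratios of −0.05, 0.30, 0.14, −0.82 and −0.19, which leaves day 14 as the only day outside 0.3 on either side of 0. Sdf2l1, a small partner of BiP complexes, had log2 levels of 7.91, 7.98, 8.19, 7.13 and 6.63 in TAB and of 6.64, 6.36, 6.90, 7.96 and 6.56 in sham. The TAB level was thus above 4 of the 5 sham levels by at least 1 on days 3, 5 and 7, and the mean over all days was not called (log2 ratio 0.69, SE 0.38, adjusted p = 0.25 from limma). Dnajb9, an ER J protein that acts with BiP, had ratios below 0 on all 5 days, from −0.94 to −0.04 (adjusted p = 0.113 from limma), and Creld2 on 4 of 5 days, from −0.64 to 0.08 (adjusted p = 0.21 from limma).
Hyou1 (GRP170) was found on 3 of 5 TAB arrays and on all sham arrays, and its mean log2 ratio was −0.77 (SE 0.27, adjusted p = 0.1 from limma). Its TAB spot was not found on days 3 and 5, which had ratios of −1.60 and −1.43, and with spots not found treated as missing the mean was −0.27. The spots of Dnajc3, an inhibitor of eIF2α kinases, did not match in sign, since the spot that represents it had a mean log2 ratio of 0.24 (SE 0.16) and the brighter one −0.20 (SE 0.11). The spot chosen for Dnajb11, a BiP co-chaperone, was found on no array, and its 2 other spots, found on all arrays, had mean log2 ratios of 0.14 (SE 0.15) and −0.49 (SE 0.21).

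Among the genes of disulfide formation, Pdia4, a protein disulfide isomerase, had log2 levels of 7.36, 8.08, 8.37, 7.59 and 7.28 in TAB and of 7.22, 6.79, 7.15, 8.06 and 7.13 in sham. The TAB samples of days 5 and 7 and the sham sample of day 14 were the only ones above 8, and the mean log2 ratio was 0.47 (SE 0.29, adjusted p = 0.295 from limma). That mean was 0.26 without day 5, 0.28 without day 7 and 0.70 without day 14. Pdia6, another isomerase, was represented by a spot with raw intensities of 1 to 12 that was found on no array, with log2 values of 3.28, 2.75, 2.65, 2.46 and 1.30 in TAB and of 3.11, 0.78, 1.96, 2.99 and 3.30 in sham. Its other spot was found on all 10 arrays, with log2 levels of 8.06, 8.28, 8.12, 7.38 and 6.92 in TAB and of 7.40, 6.97, 7.38, 7.71 and 7.17 in sham. This spot was higher in TAB on days 3, 5 and 7 and lower on days 14 and 28 (mean log2 ratio 0.43, SE 0.27), whereas Pdia4 was lower on day 14 alone. Ero1lb, an oxidase that recharges the isomerases, had ratios of 0.47, 0.49, 0.48, 0.40 and 0.08 and missed the threshold (mean log2 ratio 0.39, SE 0.11, adjusted p = 0.0615 from limma). Its paralogue Ero1l had a ratio of −1.56 on day 3, where the TAB spot was not found, and ratios between −0.53 and 0.25 on the other days.

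Among the sensors and transcription factors, Eif2ak3 had log2 levels of 7.81, 8.02, 7.93, 7.86 and 7.89 in TAB and of 7.51, 7.50, 7.23, 7.80 and 7.54 in sham. The samples did not overlap, by a margin of 0.01 between TAB day 3 and sham day 14 (mean log2 ratio 0.38, SE 0.13, adjusted p = 0.0843 from limma). Xbp1 had log2 levels of 13.55, 13.40, 13.42, 12.95 and 12.65 in TAB and of 12.93, 12.20, 12.71, 13.16 and 12.31 in sham. Its ratio was above 0 on 4 of 5 days and −0.21 on day 14 (mean log2 ratio 0.53, SE 0.21, adjusted p = 0.123 from limma), and the probe value does not tell spliced from unspliced mRNA here.
Atf4 had log2 levels of 10.08, 10.97, 11.08, 10.94 and 10.90 in TAB and of 10.42, 10.58, 10.47, 10.97 and 10.97 in sham. The TAB sample of day 3 was the lowest of all 10 samples and that of day 7 the highest, and the mean log2 ratio was 0.11 (SE 0.16, adjusted p = 0.666 from limma). Ddit3 had log2 levels of 8.91, 9.09, 9.24, 9.14 and 9.27 in TAB and of 9.03, 9.13, 9.10, 8.77 and 8.95 in sham, and the mean log2 ratio was 0.13 (SE 0.12, adjusted p = 0.473 from limma). The ratio of Ddit3 was below 0 on days 3 and 5 and 0.14 to 0.37 on days 7, 14 and 28, and the groups overlapped. Atf6 was found on no array, with log2 values of 2.88, 3.77, 4.01, 3.73 and 3.65 in TAB and of 3.82, 3.56, 3.95, 3.71 and 3.02 in sham.

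Among the effectors and feedback genes, Trib3, a pseudokinase induced by ATF4 and CHOP, had log2 levels of 7.28, 6.97, 7.16, 7.50 and 7.27 in TAB and of 6.77, 6.92, 6.98, 6.84 and 6.82 in sham. The ratio was above 0 on all 5 days, by 0.06 to 0.65, and missed the threshold (mean log2 ratio 0.37, SE 0.13, adjusted p = 0.0941 from limma). Chac1, which degrades glutathione, had ratios of 0.35, −0.90, −0.46, 1.33 and −0.61, so that neither direction prevailed, and its sham levels ranged from 6.83 to 9.05. Ppp1r15a (GADD34), the phosphatase subunit that reverses eIF2α phosphorylation, had a raw intensity of 3 on the TAB array of day 3, where its spot was not found, and of 109 to 159 on the other arrays. On the other 4 days its ratio lay between −0.42 and 0.27.

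**Figure D2:**
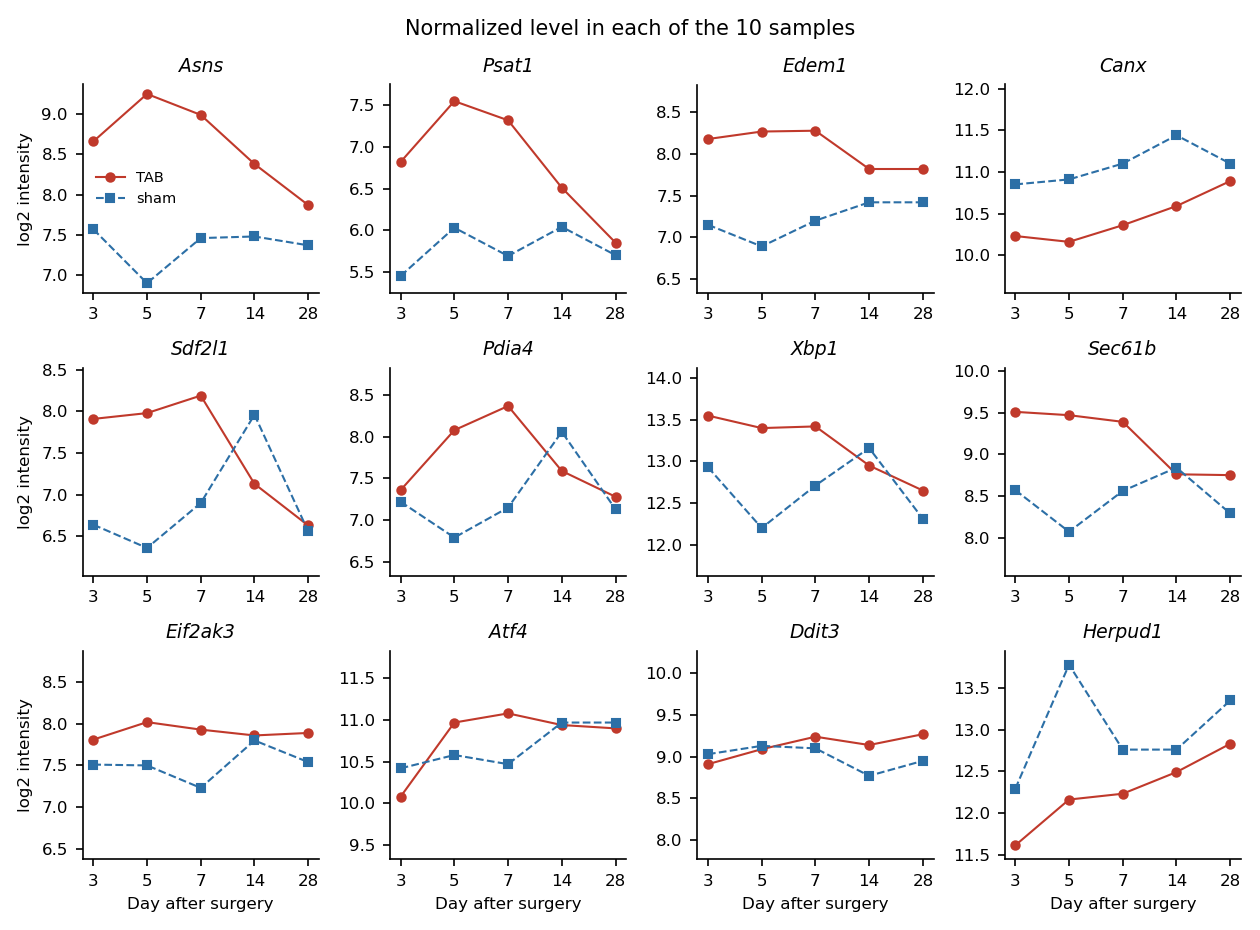
Normalized log2 intensity of 12 genes in each of the 10 samples by day after surgery (TAB as red circles, sham as blue squares, 1 sample per point; each gene has its own axis). Asns and Edem1 keep TAB above sham on all 5 days, Sdf2l1, Pdia4, Xbp1 and Sec61b have the sham point above the TAB point on day 14 and on no other day, and Herpud1 and Canx have TAB below sham throughout.

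The TAB effect was then compared between days 14 and 28 and days 3 to 7 in limma. This contrast called 0 of the 33 genes, and 0.0% of all 16113, at an adjusted p under 0.05, and 8 of the 33 genes (24.2%) had an unadjusted p under 0.05, against 11% of all genes. The share depended on the samples and spots, since it was 50% of 24 genes against 16.8% with only probes found on all 10 arrays, and 9.09% (3 of 33) against 10.6% without the samples of day 14. These 8 were Psat1, Sdf2l1, Edem1, Pdia6, Calr, Sec61b, Dnajc3 and Xbp1. The TAB effect was lower on the late days in each case, that of Pdia6 on a spot found on no array. For Dnajc3 the difference was −0.63 on the spot that represents it and −0.01 on its brighter spot. Both spots were found on all 10 arrays, so that the late drop of Dnajc3 rests on 1 of 2 spots. The late effect was the lower one in 21 of the 33 genes (63.6%) and in 49.1% of all genes. Sdf2l1 had a mean log2 ratio of 1.39 on days 3 to 7 and of −0.38 on days 14 and 28 (difference −1.77, SE 0.34, adjusted p = 0.371 from limma). Psat1 went from 1.51 to 0.31 (difference −1.20, SE 0.22, adjusted p = 0.346 from limma), Edem1 from 1.16 to 0.40, Sec61b from 1.05 to 0.19 and Xbp1 from 0.84 to 0.07. The late means of Sdf2l1, Sec61b and Xbp1 rest on day 14, whose sham sample was high in these genes, since their ratios were −0.83, −0.08 and −0.21 on day 14 and 0.08, 0.46 and 0.34 on day 28. Without day 14 the differences were −1.32, −0.59 and −0.50. Trib3 and Ddit3 ran the other way, from 0.25 to 0.55 and from −0.01 to 0.35. Among genes whose spot was found on all 10 arrays, so did Chac1 (difference 0.70), Herpud1 (0.55), Canx (0.18) and Sel1l (0.02). None of these differences passed the adjustment.

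**Figure D3:**
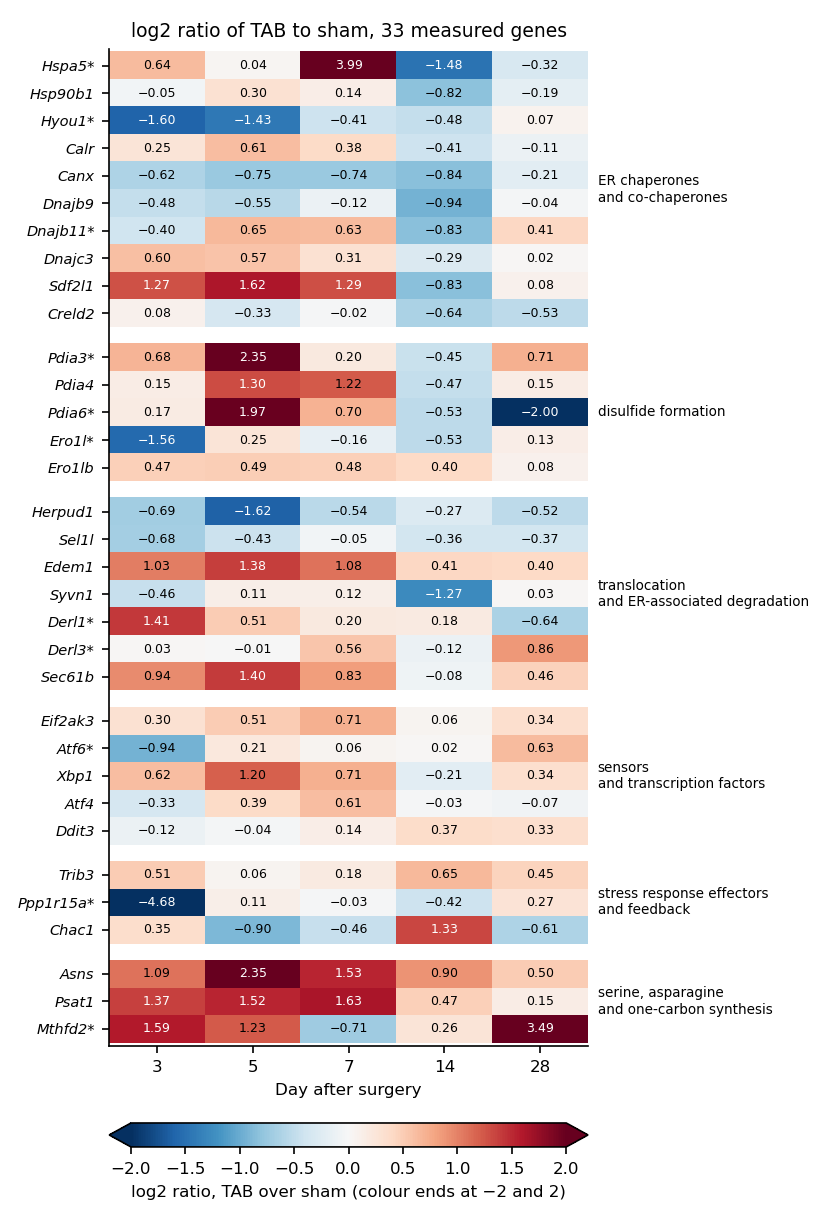
log2 ratio of TAB to sham for the 33 measured genes (rows, grouped by role) on each of the 5 days (columns), in red where TAB was higher and in blue where it was lower; an asterisk marks genes whose spot was not found on all 10 arrays. The chaperone rows are blue on day 14 in 10 of 10 genes, and the ratios past ±2 are those of Hspa5 on day 7, Ppp1r15a on day 3, Pdia3 and Asns on day 5 and Mthfd2 on day 28, of which only that of Asns rests on 2 found spots.

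By day, the ratio was above 0 in 20, 24, 23, 11 and 21 of the 33 genes on days 3, 5, 7, 14 and 28, against 49.8%, 46.6%, 48.1%, 48.3% and 49.1% of all genes. The median log2 ratio of the 33 genes was 0.17, 0.39, 0.2, −0.29 and 0.08 on these days, whereas that of all genes lay between −0.06 and 0.0. On day 14 the median was −0.83 for the 10 chaperones and co-chaperones and −0.47 for the 5 genes of disulfide formation, of which Pdia3 and Pdia6 are on spots found on no array. It was −0.12 for translocation and degradation, 0.02 for the sensors and transcription factors, 0.47 for serine, asparagine and one-carbon synthesis and 0.65 for the 3 effectors and feedback genes, so that the roles did not share 1 sign. The genes of serine, asparagine and one-carbon synthesis had medians of 1.37, 1.52 and 1.53 on days 3, 5 and 7.

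**Figure D4:**
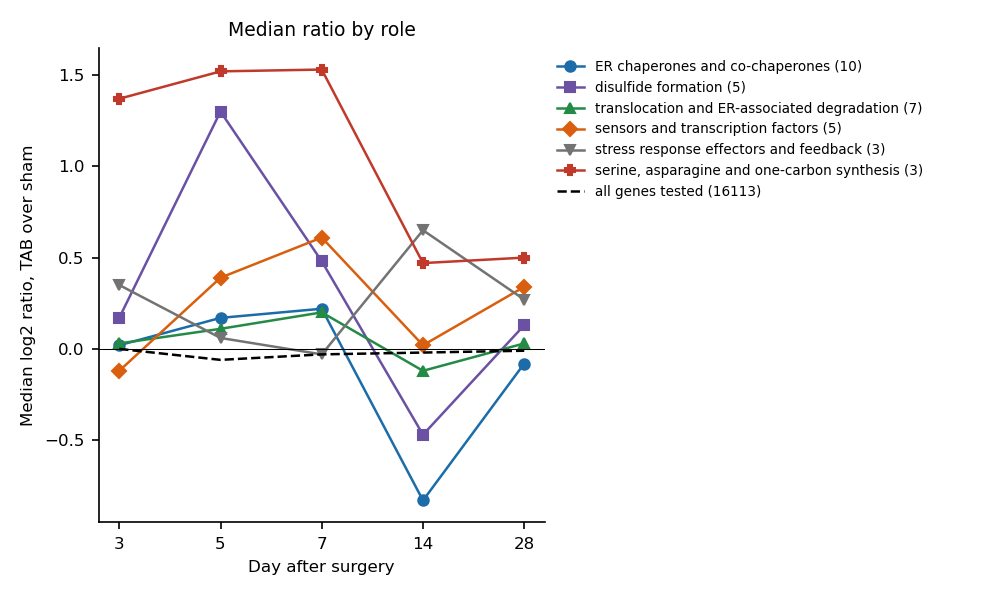
Median log2 ratio of TAB to sham by day for each role (number of measured genes in parentheses) and for all 16113 genes (dashed). The 3 genes of serine, asparagine and one-carbon synthesis lie above the other roles on days 3, 5 and 7 (1.37, 1.52 and 1.53), and the chaperones (−0.83) and disulfide genes (−0.47) are lowest on day 14.

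By the rule of 2 SDs of the day, which asked for an absolute log2 ratio above 1.78, 1.93, 1.75, 1.48 and 1.38 on the 5 days, the 33 genes had 5 up-regulated and 3 down-regulated calls. Day 3 had 0 up-regulated and 1 down-regulated gene, against 3.1% and 2.1% of all genes. Day 5 had 3 and 0 (against 4.09% and 1.43%), day 7 had 1 and 0 (4.08% and 1.58%), day 14 had 0 and 1 (3.39% and 2.27%), and day 28 had 1 of each (3.41% and 2.47%). Both spots were found for 2 of the 8 calls, Asns on day 5 (log2 ratio 2.35) and Hspa5 on day 14 (−1.48, past the threshold by 0.0035). The other 6 calls (Hspa5 on day 7, Pdia3 and Pdia6 on day 5, Pdia6 and Mthfd2 on day 28, and Ppp1r15a on day 3) involved a spot that was not found. The 5 TAB and the 5 sham samples did not overlap for Asns, Edem1 and Eif2ak3, all higher in TAB, which is 9.09% of the 33 genes, against 9.99% of all genes. They did not overlap in the lower direction for 0 genes, against 7.76% of all.

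The low ratios of day 14 went with high sham levels. The sham sample of day 14 had the highest of the 5 sham values in 20 of the 33 genes, and in 21.7% of all genes. Among the 24 genes with any spot found on all arrays, which take in the other spots of Pdia6 and Dnajb11, the number was 16, against 23.1% of all such genes. The sham value of day 14 was above the mean of the other sham values by 1.35 for Sdf2l1, 1.03 for Syvn1, 0.98 for Pdia4, 0.71 for Hsp90b1, 0.62 for Xbp1 and 0.61 for Dnajb9, on the log2 scale. The median of this difference was 0.45 for the 33 genes and 0.01 for all genes. Ddit3 (−0.28), Herpud1 (−0.28), Chac1 (−0.35) and Trib3 (−0.03) had a lower value in that sample than in the mean of the others.
Against the mean of the other 4 sham samples, the TAB sample of day 14 had a median log2 difference of 0.33 for the 33 genes, with 22 of them above 0, against a median of 0.0 and 49.6% for all genes, so that the sign of the group median on day 14 turned with the choice of the sham samples. Among genes whose spot was found on all 10 arrays, the difference stayed below 0 for Herpud1 (−0.56), Canx (−0.40), Dnajb9 (−0.33) and Syvn1 (−0.24). The same held for Creld2 (−0.19), Sel1l (−0.19), Hsp90b1 (−0.12) and Calr (−0.06). Among those above 0 were Asns (1.06), Psat1 (0.79), Edem1 (0.66), Sdf2l1 (0.52) and Pdia4 (0.52).
Of the 12 measured genes with the letters of ERSE or ERSE-II, 9 had their highest sham value on day 14, as had 10 of the 18 others with a promoter window. Of the 4 genes with CARE, Asns, Trib3, Chac1 and Herpud1, 0 had. On that day 1 of the 12 had a ratio above 0 (median log2 ratio −0.59), compared with 8 of the 18 (median −0.06). Against the mean of the other sham samples, the TAB sample of day 14 had a median log2 difference of −0.09 for the 12 (5 above 0) and of 0.46 for the 18 (15 above 0), so that the turn of sign described for all 33 genes was not seen in the median of the 12. The 12 take in Pdia6 and Dnajb11 on spots found on no array. Among genes with a spot found on all arrays, which take in the other spots of these, 9 of 10 with the letters and 7 of 14 others had their highest sham value on day 14. These sets were not tested against each other.
The samples of day 14 also differed in clock genes, which were looked at after the values of the members had been seen. Arntl, which peaks in the opposite phase to Dbp, had log2 levels of 9.98 in sham and 8.30 in TAB on day 14, and Dbp had 8.59 and 11.33. The sham sample of day 3 had a like pair of levels (Arntl 9.87, Dbp 8.01) and held the highest sham value of 1 of the 33 genes. Whether the time of sampling has a part in the high sham values was not tested.

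**Figure D5:**
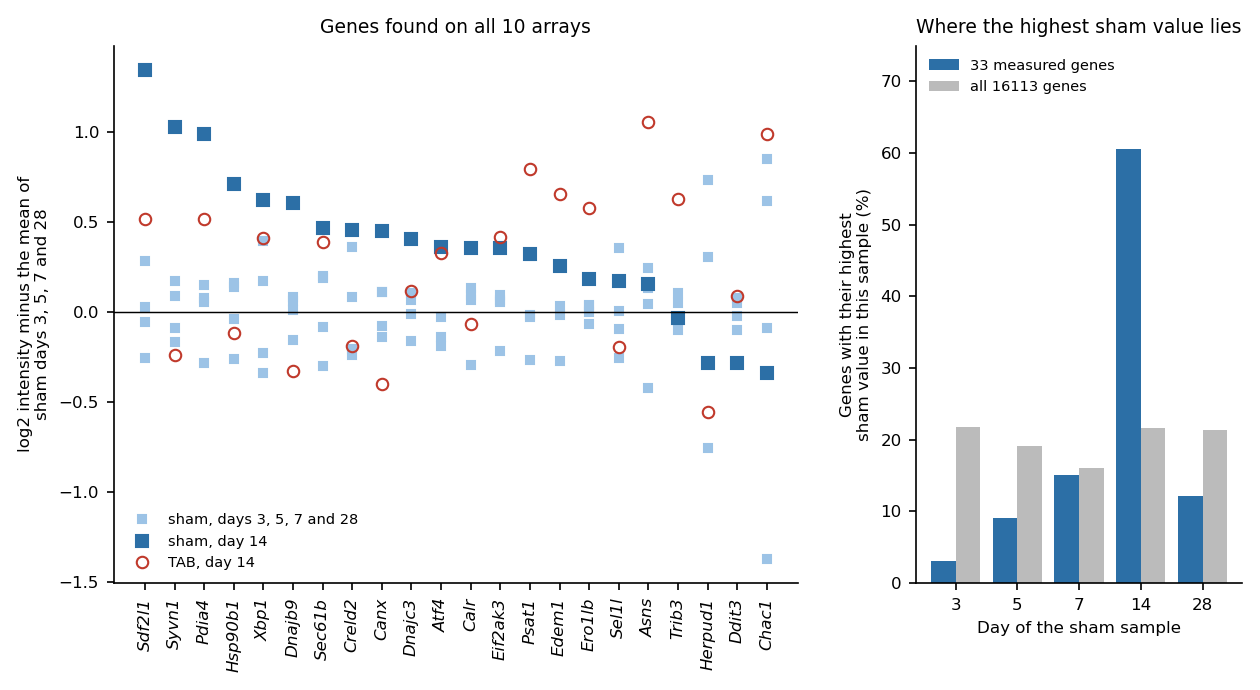
Left, log2 intensity of the 5 sham samples and of the TAB sample of day 14, each minus the mean of sham days 3, 5, 7 and 28, for the 22 genes whose spot was found on all 10 arrays, ordered by the sham value of day 14 (from 1.35 for Sdf2l1 to −0.35 for Chac1). Right, share of genes with their highest sham value in each sham sample, where day 14 holds 20 of the 33 measured genes and 21.7% of all genes.

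Other genes of the same pathways were described from 5 lists, of which 122 of 127 genes were measured. Of the 122, 20 rose and 6 fell in limma, which is 16.4% and 4.92%, against 9.19% and 7.87% of all genes. The median log2 ratio was 0.21, against −0.03 for all genes. Among 26 other ER folding genes, 10 rose (38.5%) and 0 fell (median 0.35). These included Rcn3, an ER calcium-binding protein (mean log2 ratio 1.40, SE 0.18, adjusted p = 0.0154 from limma), the thiol oxidase Qsox1 (1.39, SE 0.29, adjusted p = 0.0315 from limma) and the disulfide isomerase Txndc5 (1.30, SE 0.20, adjusted p = 0.0192 from limma). The Qsox1 spot was found on 5 TAB arrays but on 1 sham array, so that the size of its ratio rests on sham spots that were not found. Pdia5 (1.27), Serp1 (1.03), Ppib, P4hb, Fkbp10, Fkbp14 and Fkbp11 also rose, and P4hb, Ppib and Fkbp10 are known to act on procollagen. Of 32 other genes of translocation and degradation, 2 rose (6.25%), the channel subunit Sec61a1 (mean log2 ratio 0.65) and the signal peptidase subunit Spcs3 (0.99), and 0 fell.
Among 26 other genes of stress sensing and transcription, Nupr1, a stress-induced chromatin protein (mean log2 ratio 1.45, SE 0.15, adjusted p = 0.0121 from limma), Bak1 (1.05) and Bax (0.76), both of which permeabilize mitochondria, rose, and Eif2ak1, the haem-regulated eIF2α kinase, fell (−0.51). Among 31 other ATF4 targets and amino acid genes, 5 rose (16.1%) and 2 fell (6.45%), with a median of 0.17. Gdf15, a secreted stress cytokine, had log2 ratios between 2.01 and 3.85 on the 5 days (mean 2.99, SE 0.29, adjusted p = 0.0116 from limma). Aldh18a1, of proline synthesis (1.29), Mthfd1l, of mitochondrial folate metabolism (1.10), and the transporter Slc1a4 (0.98) rose as well, whereas Vldlr (−1.06) and Cth (−0.90) fell. The transporter Slc7a5 passed the test on a spot found on 2 TAB arrays and 0 sham arrays, so that no fold is given for it. Of 7 mitochondrial folding genes, 0 rose and 3 fell, Clpx (−0.69), Clpp (−0.43) and Trap1 (−0.39), with a median of −0.39.

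Markers of other cells moved over the same days. Of 8 measured fibroblast markers 6 rose, with a median log2 ratio of 2.3 and a summed log2 level of 14.37 to 14.57 in sham and 14.97 to 15.68 in TAB. Lum rose least of the 6 (mean log2 ratio 0.59), and Dcn (0.26) and Tcf21 (0.24) were not called. Of 8 macrophage markers 7 rose (median 1.15), with a summed log2 level of 12.25 to 12.51 in sham and 12.87 to 14.06 in TAB, and of 6 cell cycle genes 3 passed the test (median 1.72). Of the latter, Top2a was found on 1 sham array and Ccna2 on 3, and Mki67, which enters the median, on 0, so that the sizes rest in part on sham spots not found. Of 10 cardiomyocyte markers, 0 rose and 2 fell, with a summed level of 17.78 to 17.94 in sham and 17.75 to 17.80 in TAB. The brightest of these, Myl2, had a raw intensity of at least 65000, read as saturated, on 9 of 10 arrays, which narrows the range of the sum. The 2 that fell, Atp2a2 and Mb, were read from 1 of 3 and 1 of 2 spots. Their highest raw intensities were 239 and 423, against 6325 or more for the other cardiomyocyte markers. Of 5 plasma cell markers, a cell type with a large ER, 1 rose, Sdc1, and the summed level was 7.97 to 8.65 in sham and 7.94 to 8.47 in TAB. Jchain (listed as Igj) and Cd38 of the plasma cell list and Col1a1 and Pdgfra of the fibroblast list were removed as below 1. None of 8 endothelial markers was called, and 1 of 5 smooth muscle markers, Tagln, rose on a spot found on 4 TAB and 0 sham arrays. Median ratios of the fibroblast list were 2.34, 3.27, 2.71, 1.87 and 1.32 on days 3, 5, 7, 14 and 28, and those of the macrophage list were 1.19, 1.39, 1.35, 0.95 and 0.57. The part of these markers in the changes of Asns, Psat1, Edem1 and the ER folding genes was not tested.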

How the data were processed

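mRNA of 10 left ventricle samples (5 TAB, 5 sham, 1 per day) was hybridized to 1-colour OneArray oligonucleotide arrays. The authors deposited a raw intensity per spot and array, from which background had been taken off in a way not given in the sources used here. A flag and a detection p-value of unstated computation were deposited with it. The deposited p-value was not used, and a negative deposited flag was read as a spot not found, which concerned 43.3% of the values over all arrays. The median raw intensity of an array lay between 34 and 57, and precision is limited by how many arrays there are.

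The deposited intensity was multiplied per array so that the medians of all arrays matched. Of 26423 probes, 6447 that fell under 1 on some array were dropped. Quantile normalization used the rank medians of the remaining probes, and log2 was then taken. A gene took the probe with the largest summed absolute log2 ratio. The average TAB effect and its difference between late and early days were fitted with limma 3.58.1 (lmFit, eBayes) in R 4.3.3 over 16113 genes, with a block for each day and p-values adjusted by Benjamini-Hochberg (threshold 0.05). The pairing of TAB and sham comes from the day in the labels, and within a day the deviations from the TAB and the sham mean correlated with r = 0.1129, −0.0165, 0.0065, 0.0029 and 0.014 on the 5 days. Samples of a group differ in day, so that their spread includes time after surgery. The fit was tested on simulated data. Tables were made with Python 3.11.15, numpy 2.4.6 and pandas 2.3.3.

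The genes and the lists were chosen with earlier results of these data known. Named with values in every sample are the genes called on average, those called on 2 or more days, those whose samples did not overlap, and Hspa5, Xbp1, Atf4, Ddit3, Atf6 and Eif2ak3, besides others whose course the text describes, which were chosen after their values were seen. Ern1, whose spot was removed, has its raw range only. In the other pathway lists the 3 called genes with the largest mean ratio are named, and further called genes were named after their values were seen. Markers and pathway genes under an older symbol were matched through RefSeq synonyms. Alternatives were other scalings, an offset of 50, other filters and probe choices, a fit without the block or with trend and robust on, a fixed threshold, and each day left out. Spots not found treated as missing, and the comparison of day 14 with the other sham samples, were added after seeing the data. The miRNA arrays were not analysed here.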

Additional observations from a re-analysis of the deposited data

Results flagged for a closer look

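Among the 66 sets of 5 samples (33 genes, TAB and sham), 5 held a sample whose gap to its nearest neighbour took more than 0.71 of the range of the set, Dixon's criterion for 5 values, which chance meets in about 1 of 20 sets. Ppp1r15a had a log2 level of 1.98 in the TAB sample of day 3 (next lowest 6.88), Ero1l of 4.25 in the same sample (next lowest 5.80), and Derl1 of 3.66 in the sham sample of day 3 (next lowest 5.19), and the spot was not found on the array in any of these 3 cases. Atf4 had 10.08 in the TAB sample of day 3 (next lowest 10.90) and Syvn1 had 8.29 in the sham sample of day 14 (next highest 7.43), both with found spots. The TAB array of day 3 had the lowest median raw intensity of the 10 arrays, 34 against 42 to 57, and its part in the low values of that sample was not tested.

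In 3 genes the ratio was above 0 on days 3, 5 and 7 and below 0 on days 14 and 28. The late minus the early TAB effect was −2.46 for Hspa5 (adjusted p = 0.514 from limma), −0.68 for Calr (adjusted p = 0.418 from limma) and −2.21 for Pdia6 (adjusted p = 0.412 from limma). None passed the test, the value of Hspa5 takes in the sham spot of day 7 that was not found, and the Pdia6 spot was found on no array. The other Pdia6 spot, found on all arrays, kept this order of signs, with a late minus early effect of −1.22 (adjusted p = 0.108 from limma in a separate fit over the 11059 genes found on all arrays, so that it is not on the same footing as the values above).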

How the results depend on the processing

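The counts of 3 genes higher and 1 lower moved to 4 and 1 with median scaling only and with quantile normalization within each operation, to 6 and 3 with 50 added before log2, to 7 and 4 with only probes found on all 10 arrays, to 6 and 2 with trend and robust on, to 7 and 3 with spots not found treated as missing and to 0 and 0 with probes below 1 set to 1. Averaging the probes of a gene gave 3 and 0, and the brightest probe 3 and 1. Without the block of day they were 7 and 1 (21.2% and 3.03%, against 12.1% and 10.2% of all genes). With each day left out they ranged from 0 to 4 and from 0 to 1. The 4 and 1 were those without day 28 (12.1% and 3.03%, against 9.2% and 7.89% of all genes). Among probes found on all 10 arrays, 17.7% and 18.4% of 11059 genes were called higher and lower. With spots not found treated as missing, the shares were 25% and 10.7% of these genes, against 16% and 16.8% of all genes. Over all genes, 1481 higher and 1268 lower became 459 and 218 with probes below 1 set to 1, 2242 and 2227 with 50 added, and 2130 and 2064 with trend and robust on. Ero1lb was called in 8 of 15 alternatives, Asns, Psat1 and Edem1 in 10 and Canx in 9. The contrast of late and early days called 0 of these genes in all alternatives run for it. Genes without overlap numbered 5 higher (15.2%) with median scaling only and with normalization within each operation, against 12.8% and 12.7% of all genes. With a day left out, 3 to 6 were higher (9.09% to 18.2%, against 11.6% to 14.6% of all genes) and 0 to 1 lower (0% to 3.03%, against 9.3% to 14.6%). The 5 up-regulated and 3 down-regulated calls became 9 and 8 with 50 added (5.45% and 4.85% of the ratios of these genes, against 3.21% and 1.46% of all ratios), 9 and 3 with only found probes (7.5% and 2.5%, against 3.37% and 1.32%), and 24 and 8 with a fixed threshold of 1 on the absolute log2 ratio. These were 14.5% and 4.85% of the 165 ratios of these genes, against 9.07% and 7.28% of all ratios.

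Signs that turned belonged to genes without a call. With a day left out, the mean log2 ratio ranged from −0.28 to 1.09 for Hspa5, −0.23 to 0.05 for Hsp90b1, −0.05 to 0.32 for Dnajb11, −0.41 to 0.58 for Pdia6, −0.16 to 0.23 for Atf6, −0.01 to 0.22 for Atf4 and −0.41 to 0.15 for Chac1. The values of Dnajb11, Pdia6 and Atf6 are those of spots found on no array. With spots not found treated as missing Hspa5 was at −0.28. With median scaling only, Hsp90b1 was at 0.00, Atf6 at 0.03 and Chac1 at 0.02, and with normalization within each operation Atf6 was at 0.04 and Chac1 at 0.02. With 50 added, Dnajb11 was at −0.33 and Atf6 at 0.00. Dnajb11 was at −0.47 with only found probes and at −0.09 with probes averaged, and Dnajc3 at −0.20 with the brightest probe. The median log2 ratio of the 33 genes on day 14, −0.29, was 0.33 against the mean of the other sham samples. The cause was not tested.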
